A study of Mus musculus with 9 samples.

Results

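The mammary lineage factors followed here are 10 transcription regulators that place a mammary cell on the basal or the luminal side: Trp63, Trp73, Gata3, Foxa1, Esr1, Elf5, Sox9, Sox10, Runx1 and Id4. They were taken by gene symbol from a table of 55418 symbols, and all 10 have a row in it. The mammary gland has an outer layer of contractile basal cells and an inner layer of luminal cells that sense hormones or make milk. The protein p63 holds epithelial cells in the basal state, whereas Gata3, Foxa1, the oestrogen receptor encoded by Esr1, and Elf5 are known for luminal identity. Sox9 and Sox10 are linked to stem and progenitor cells of the gland, Runx1 acts in both layers, and Id4 is known from basal cells.

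The cells were cultures of 66cl4, a mouse line labelled as triple negative breast cancer, meaning a tumour without hormone receptors or Her2 amplification. All cultures carried a short hairpin vector and were grown under puromycin. The hairpin was a scrambled one (SCR) or 1 of 2 directed at Eya3, which acts as a phosphatase and as a partner of homeobox transcription factors (shEya3_KD1 and shEya3_KD2). Each of the 3 groups had 3 libraries labelled as biological replicates, with no description of separate cultures and none of clones, so p-values measure the spread between these libraries, which may be technical.

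Library totals ran from 27758862 to 52691960 counts, and 15914 genes passed the filter on low counts. Levels below are in CPM, which is the count scaled to a common library size with TMM factors, as mean ± SD with n = 3. The targeted gene, Eya3, was at 72.9 ± 5.56 in SCR, 23.1 ± 1.71 in shEya3_KD1 and 37.5 ± 3.02 in shEya3_KD2. Among markers of mammary epithelium, Epcam, an epithelial adhesion molecule, had no counts in any library, and Cdh1, which encodes E-cadherin, had 9, 5 and 22 counts in the 3 libraries of SCR, shEya3_KD1 and shEya3_KD2. Krt8, a keratin of simple epithelia, was at 679 ± 20.8 CPM in SCR, and Vim, the filament protein of mesenchymal cells, at 2099 ± 17.3 CPM. The usual epithelial adhesion markers of the labelled tissue were therefore absent or near 0, beside a high keratin 8. The other keratins of this marker set were low by counts in SCR. Krt14 was at 1.32 ± 0.497 CPM there, and Krt18 and Krt5 had 4 and 3 counts. Of the receptors that define the label, Pgr, the progesterone receptor, had no counts, Esr1 had counts in each of the 9 libraries, and Erbb2, which encodes Her2, was at 53.6 ± 1.95 CPM in SCR. These are messenger RNA levels and do not measure receptor protein.

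Gata3 and Esr1 rose with both hairpins, by close to a doubling, Sox9 and Trp63 rose with shEya3_KD1 and did not pass the test with shEya3_KD2, and Runx1 moved little. The other members, Foxa1, Elf5, Id4, Sox10 and Trp73, were at or near 0 in every group. With shEya3_KD1, 4 of the 10 members, of which 5 were tested, were called higher and 0 lower. Of all genes tested 50.3% were called, 24.1% higher and 26.2% lower. With shEya3_KD2, 3 were called higher and 0 lower, beside 45.3% of all genes, 23.0% higher and 22.3% lower. Between the hairpins 1 member was higher and 2 were lower in shEya3_KD2, beside 49.6% of all genes, 27% higher and 22.5% lower. Both comparisons with SCR use the same SCR libraries. A call is a Benjamini-Hochberg adjusted p under 0.05 over all genes tested. Only 5 members passed the filter, and Trp63 did so through shEya3_KD1 alone, so these counts describe the members and support nothing beyond them. In bulk libraries, a change in the number of cells that express a gene and a change in RNA per cell cannot be told apart.

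**Figure D1:**
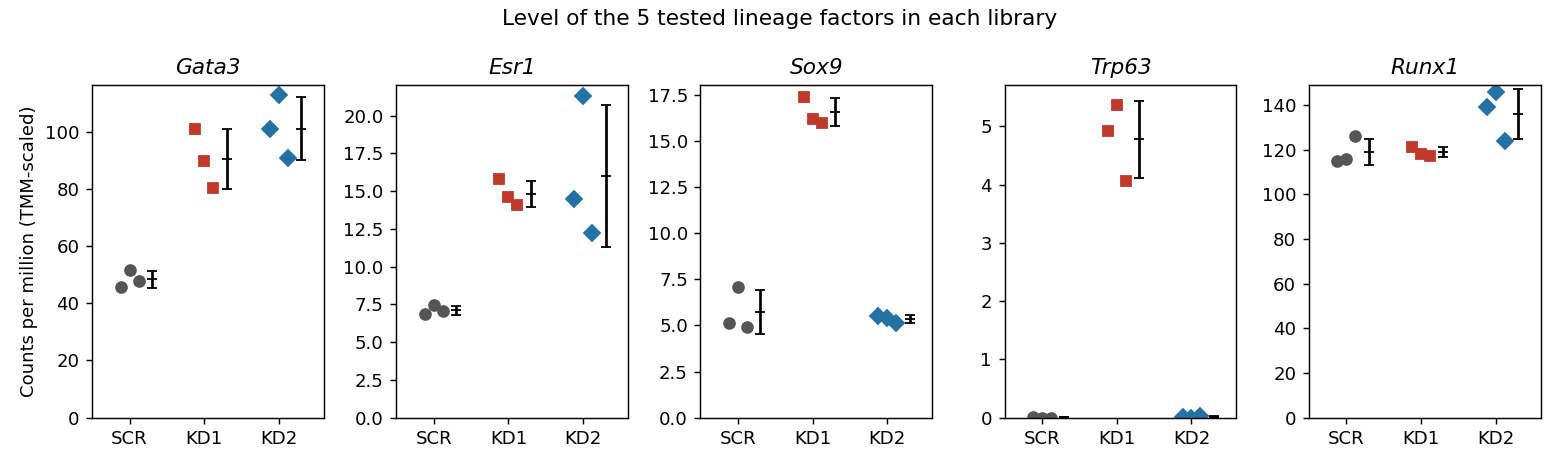
Level of the 5 tested members in each library, in TMM-scaled CPM on axes that start at 0; points are libraries, the bar beside them is the mean ± SD of 3. Gata3 and Esr1 lie higher in each library of both hairpins than in any SCR library, Sox9 and Trp63 are high in shEya3_KD1 only among the 3 groups plotted, and Runx1 differs little.

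Gata3 is a zinc finger factor required to form and keep luminal cells (mm10, chromosome 2, 9857078 to 9890034, minus strand). Its level was 45.8, 51.5 and 47.9 CPM in SCR replicates 1 to 3, 101, 89.7 and 80.4 CPM in shEya3_KD1, and 101, 113 and 90.9 CPM in shEya3_KD2. Each library of either hairpin lay above each SCR library, and the hairpins overlapped each other. The log2 fold change was 0.90 ± 0.09 (SE) with shEya3_KD1 and 1.07 ± 0.09 with shEya3_KD2, and both passed edgeR's quasi-likelihood test (adjusted p = 1.53e-06 and 6.51e-07). Non-overlap of this kind was found for 59.3% and 54.4% of all genes tested. Between the hairpins the log2 difference of shEya3_KD2 over shEya3_KD1 was 0.16, with a 95% interval of -0.03 to 0.36 and an adjusted p of 0.159 in the same test. It passed without shEya3_KD1 replicate 1 (0.25, adjusted p = 0.0351 in edgeR) and without shEya3_KD2 replicate 3 (0.24, adjusted p = 0.0323 in edgeR). Exons of Gata3 overlap those of 9230102O04Rik on the same strand, a gene with 549 counts over the 9 libraries. Reads in the shared exons could be assigned to either gene, and their share was not measured.

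Esr1 encodes oestrogen receptor alpha, which carries the hormone response of luminal cells (chromosome 10, 4611593 to 5005614, plus strand). It was at 6.85, 7.43 and 7.07 CPM in the SCR libraries, 15.8, 14.6 and 14.1 CPM in shEya3_KD1, and 14.5, 21.3 and 12.2 CPM in shEya3_KD2. No hairpin library overlapped SCR, which held for 59.3% of all genes tested with shEya3_KD1 and 54.4% with shEya3_KD2. Replicate 2 of shEya3_KD2 stood above the rest of its group. The log2 fold change was 1.06 ± 0.16 with shEya3_KD1 (adjusted p = 1.53e-04, edgeR) and 1.15 ± 0.16 with shEya3_KD2 (adjusted p = 1.21e-04, edgeR), or 0.91 ± 0.10 for the latter without replicate 2. The log2 difference between the hairpins was 0.09 with a 95% interval of -0.25 to 0.43, and it turned to -0.14 without that library. In SCR the 3 libraries held 1018 Esr1 counts against 0 for Pgr, a gene that oestrogen receptor is known to induce. Greb1, another such target, had 10, 16 and 8 counts in SCR, shEya3_KD1 and shEya3_KD2, and Areg, a growth factor of the luminal hormone response, went from 23.8 ± 1.52 to 36.3 ± 0.559 and 42.4 ± 4.33 CPM.

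Since Gata3 and Esr1 moved in the same direction with both hairpins, their promoter windows are shown with that of Foxa1, the luminal factor without a read. Each window runs from 250 bases before to 50 bases after a RefSeq start on GRCm38.p6, the assembly of mm10, and capitals mark the letters GGGCGG on either strand, a GC box.
Gata3, chr2:9878551-9878850, minus strand: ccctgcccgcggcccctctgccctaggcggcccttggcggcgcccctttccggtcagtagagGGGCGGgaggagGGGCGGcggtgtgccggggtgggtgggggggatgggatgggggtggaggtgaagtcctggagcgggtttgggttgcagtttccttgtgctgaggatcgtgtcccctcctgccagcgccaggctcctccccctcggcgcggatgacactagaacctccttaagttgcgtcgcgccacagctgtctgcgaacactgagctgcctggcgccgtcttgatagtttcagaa
Esr1, upstream start, chr10:4611739-4612038, plus strand: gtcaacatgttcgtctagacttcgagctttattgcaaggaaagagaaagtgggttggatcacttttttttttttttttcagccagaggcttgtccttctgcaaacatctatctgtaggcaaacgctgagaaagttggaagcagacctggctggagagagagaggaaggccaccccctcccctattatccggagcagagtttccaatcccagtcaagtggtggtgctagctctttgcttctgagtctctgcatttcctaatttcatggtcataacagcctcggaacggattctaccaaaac
Esr1, downstream start, chr10:4709908-4710207, plus strand: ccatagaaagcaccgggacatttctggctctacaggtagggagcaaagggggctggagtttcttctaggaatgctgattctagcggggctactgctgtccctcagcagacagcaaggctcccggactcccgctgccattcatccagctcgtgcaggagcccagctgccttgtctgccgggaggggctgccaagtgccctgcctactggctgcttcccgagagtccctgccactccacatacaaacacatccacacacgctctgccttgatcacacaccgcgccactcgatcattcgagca
Foxa1, chr12:57546062-57546361, minus strand: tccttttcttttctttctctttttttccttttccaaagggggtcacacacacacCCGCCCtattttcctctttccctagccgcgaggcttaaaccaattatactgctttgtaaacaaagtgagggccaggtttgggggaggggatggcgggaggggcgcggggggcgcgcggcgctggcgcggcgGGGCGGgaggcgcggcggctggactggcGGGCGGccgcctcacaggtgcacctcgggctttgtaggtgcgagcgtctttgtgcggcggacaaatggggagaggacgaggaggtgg
The Gata3 window held 2 GC boxes and that of Foxa1 held 3, and both Esr1 windows held 0; the letters occur in 35.7% of the 32851 windows in the table. None of these 4 windows held TATAAA (13.6% of all windows), AGATAA (a form of the Gata motif, 11.2%), TGTGGT (a form of the Runx motif, 16.8%) or CACGTG (an E box, 7.15%), on either strand. The ratio of observed to expected CpG was 0.66 for Gata3, 0.37 and 0.46 for Esr1, and 0.93 for Foxa1, beside a median of 0.38 over all windows. The window of Id4, which also had no reads, had a ratio of 0.99 and 5 GC boxes, so the silent members included CpG-rich windows. Of the 2 Runx1 windows, the upstream one had a ratio of 0.14 with 2 matches to TGTGGT and the downstream one a ratio of 1.01 with 0. Among the other members near 0, the 2 Elf5 windows had ratios of 0.11 and 0.44 with 0 GC boxes. Those of Trp73 had 0.24 with 1 GC box and 0.86 with 0. Trp63, Sox9 and Sox10 were not matched to a window. Counts are summed per gene, so they do not tell which start was used.

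Trp63 encodes p63, a relative of p53 and the master regulator of basal epithelia (chromosome 16, 25683763 to 25892102, plus strand). It had 1, 0 and 0 counts in SCR, 197, 229 and 141 counts in shEya3_KD1, and 1, 0 and 1 counts in shEya3_KD2. In CPM the shEya3_KD1 libraries stood at 4.92, 5.36 and 4.06, and no other library went above 0.0236. As a ratio of summed counts scaled to library size, shEya3_KD1 exceeded shEya3_KD2 291 times, with a 95% counting interval of 80.3 to 2411, and SCR 690 times (123 to 27303). Both differences were called in edgeR's quasi-likelihood test, but the gene was admitted to it only by its level in shEya3_KD1, so the counts themselves carry the comparison. Between shEya3_KD2 and SCR the adjusted p was 0.572 in edgeR. The gene has a long form and a form that starts from an internal promoter, which counts per gene do not separate.

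Trp73 encodes p73, the other p53 relative of this set. It had 3, 1 and 2 counts in SCR, 1, 3 and 3 in shEya3_KD1, and 3, 6 and 3 in shEya3_KD2, or at most 0.222 CPM. It was too low for the filter, and without a filter the smallest of its 3 adjusted p in edgeR was 0.327. Its exons overlap Trp73os on the opposite strand, which had 30 counts over the 9 libraries, and no source used here states the strand setting. The p53 gene itself, Trp53, was at 346 ± 4.11, 308 ± 23.6 and 415 ± 14.2 CPM in SCR, shEya3_KD1 and shEya3_KD2.

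Sox9, a factor of mammary stem and luminal progenitor cells (chromosome 11, 112782224 to 112787760, plus strand), followed shEya3_KD1 as well. Its level was 5.13, 7.08 and 4.93 CPM in SCR, 17.4, 16.2 and 16.0 CPM in shEya3_KD1, and 5.54, 5.43 and 5.12 CPM in shEya3_KD2. The shEya3_KD1 libraries lay above the other 6, where 59.3% of all genes tested did not overlap between shEya3_KD1 and SCR. The shEya3_KD2 libraries lay within the range of SCR. The log2 fold change with shEya3_KD1 was 1.53 ± 0.12 (adjusted p = 4.36e-08, edgeR). With shEya3_KD2 it was -0.10 with a 95% interval of -0.37 to 0.18, and it was 0.09 without SCR replicate 2, the highest SCR library. The direct comparison put Sox9 lower in shEya3_KD2 than in shEya3_KD1 (log2 fold change -1.63 ± 0.12, adjusted p = 4.02e-08, edgeR), where non-overlap was found for 54.3% of genes. Sox10, which can drive mammary cells toward a neural crest-like state, had 1 count, in shEya3_KD1 replicate 2.

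Runx1, the DNA-binding subunit of core binding factor (chromosome 16, 92601466 to 92826149, minus strand), was the member with most reads. Its level was 115, 116 and 126 CPM in SCR, 121, 118 and 117 CPM in shEya3_KD1, and 139, 146 and 124 CPM in shEya3_KD2. The log2 fold change with shEya3_KD1 was 0.00, with a 95% interval of -0.15 to 0.15. With shEya3_KD2 it was 0.20 ± 0.07 (adjusted p = 0.0326, edgeR), and shEya3_KD2 replicate 3 lay below SCR replicate 3, so the groups overlapped. This call was lost without SCR replicate 1 (adjusted p = 0.115, edgeR), SCR replicate 2 (0.108), shEya3_KD1 replicate 2 (0.0535), shEya3_KD2 replicate 1 (0.108) or shEya3_KD2 replicate 2 (0.115). Between the hairpins the log2 fold change was 0.20 ± 0.07 (adjusted p = 0.0287, edgeR), higher in 3 of 3 shEya3_KD2 libraries, and it was lost without shEya3_KD1 replicate 2 (0.0758), shEya3_KD1 replicate 3 (0.0717), shEya3_KD2 replicate 1 (0.0810) or shEya3_KD2 replicate 2 (0.102). Non-overlap between the hairpins was found for 54.3% of all genes tested. Its partner subunit Cbfb was at 97.5 ± 4.73, 93.4 ± 4.25 and 117 ± 3.88 CPM in SCR, shEya3_KD1 and shEya3_KD2.

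**Figure D2:**
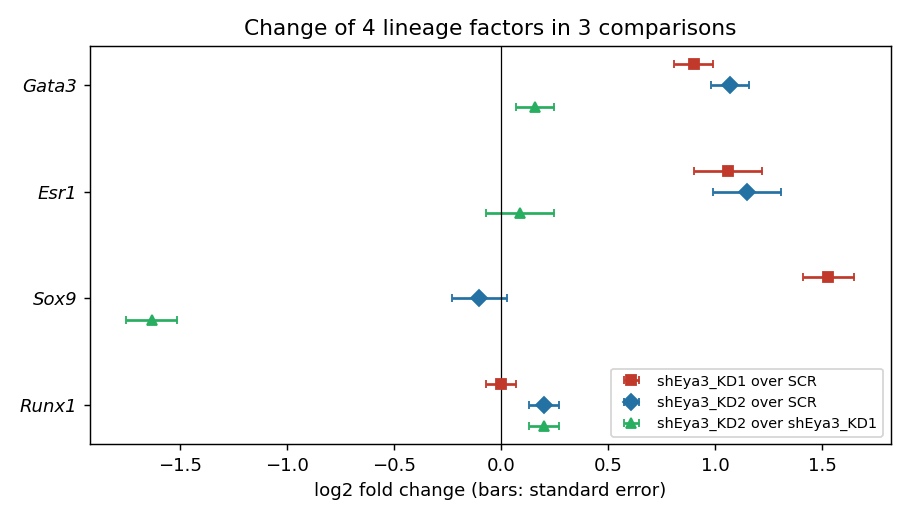
Log2 fold change with its standard error (x axis) for 4 members in the 3 comparisons. Gata3 and Esr1 have positive values against SCR with both hairpins, Sox9 has 1.53 with shEya3_KD1 and -0.10 with shEya3_KD2, and all Runx1 values lie at or under 0.20; Trp63 is left out because its fold rests on 1 or 2 counts.

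Foxa1, the forkhead factor that opens chromatin for the oestrogen receptor, and Id4, an inhibitor of basic helix-loop-helix factors, had 0 counts in all 9 libraries. A count of 0 over the 3 libraries of a group allows up to 0.0210 CPM in SCR, 0.0255 in shEya3_KD1 and 0.0249 in shEya3_KD2, by a floor of 3 counts. Elf5, the factor of milk-secreting alveolar cells, had 1 count in SCR, 2 in shEya3_KD1 and 0 in shEya3_KD2, at or under the same floor. No fold change is given for these genes or for Sox10, and differences below the floor were not detectable at this depth.

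Divided by the length of merged exons, Gata3 was the highest member in each group, at 12.2 ± 0.727 CPM per kb in SCR, 22.7 ± 2.63 in shEya3_KD1 and 25.5 ± 2.77 in shEya3_KD2. Runx1 came next at 9.89 ± 0.498, 9.87 ± 0.194 and 11.3 ± 0.941 CPM per kb, and its libraries did not overlap those of Gata3 within any group. Sox9 followed at 1.38 ± 0.287, 4.01 ± 0.184 and 1.30 ± 0.0523 CPM per kb, ahead of Esr1 at 0.521 ± 0.0216, 1.09 ± 0.0623 and 1.17 ± 0.344 CPM per kb. Sox9 and Esr1 overlapped in shEya3_KD2 only of the 3 groups. In shEya3_KD1 Trp63 followed Esr1 at 0.570 ± 0.0785 CPM per kb, above 21.6% of the genes tested, while Gata3 stood above 84.4% of them there. In SCR and shEya3_KD2 no member below Esr1 had a mean above 0.0211 CPM per kb.

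**Figure D3:**
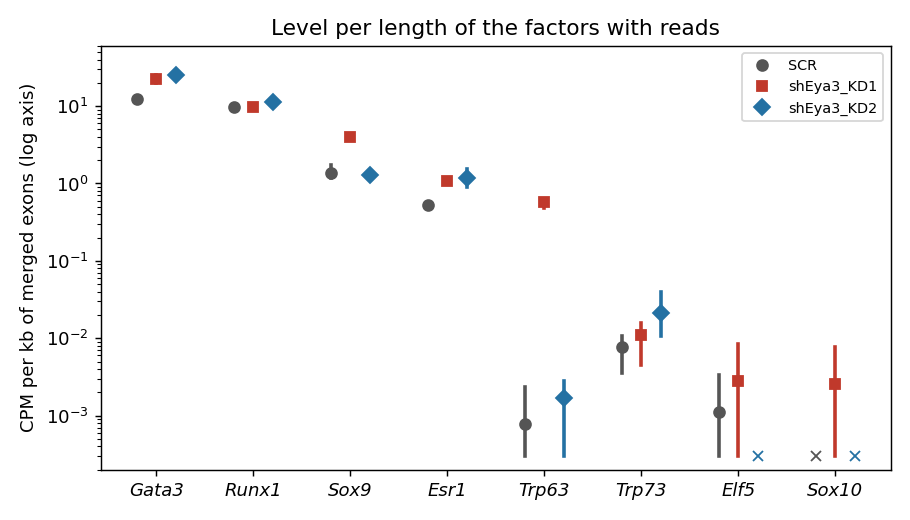
CPM per kb of merged exons on a log axis for the 8 members with reads. Points are group means, and lines run from the lowest to the highest library. A line whose lower end is level with the crosses includes a library at 0. Crosses mark groups without reads; Gata3 and Runx1 lead in each group and Trp63 joins the detected factors in shEya3_KD1.

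The members were also compared with genes of similar pattern over the 9 libraries, which form 3 tight groups, so high correlations are common and describe group means. By Pearson correlation of log2 CPM among 11571 other protein-coding genes, Trp63 was most like Pid1, Id2 and Sel1l3 (each 0.997), and 357 genes were above 0.95. Id2, a relative of Id4, went from 26.6 ± 0.764 CPM in SCR to 131 ± 1.64 in shEya3_KD1 and 24.9 ± 2.21 in shEya3_KD2, and Pid1 and Sel1l3 had no counts outside shEya3_KD1. Like Trp63, Pid1 and Sel1l3 passed the filter through shEya3_KD1 alone, so a high correlation among them was set beforehand. Sox9 was most like Serpina1d (0.996), Sparcl1 (0.993) and Olfml3 (0.992), with 228 genes above 0.95. Gata3 was most like Obsl1 (0.997), Mta1 (0.996) and Hs6st1 (0.995), with 308 genes above 0.95. Esr1 was most like Pja2 (0.996), Sos1 (0.996) and Fndc3a (0.994), with 185 genes above 0.95. For Runx1 the nearest were Pggt1b (0.972), Pbrm1 (0.967) and Usp9x (0.967), with 30 genes above 0.95. Among the members, Trp63 with Sox9 and Gata3 with Esr1 each had 0.97.

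Genes that mark the basal layer did not follow Trp63 as a block. Of 26 listed basal genes 11 were tested, and with shEya3_KD1 5 were higher and 5 lower, with a median log2 fold change of 0.24 beside 0.01 over all genes. That median was negative with 7 of the 9 libraries left out in turn, for example -0.40 without SCR replicate 1. It was also negative (-0.28) without shEya3_KD2 replicate 3, a library outside this comparison. The filter on low counts was rerun each time, so the basal genes tested can differ between these fits. With shEya3_KD2 5 were higher and 1 lower, with a median of 0.44 beside 0.00 over all genes, or 0.79 without SCR replicate 2, 0.73 without shEya3_KD2 replicate 3, 0.27 without SCR replicate 1 and 0.27 without shEya3_KD2 replicate 2. Of all genes tested 24.1% were higher and 26.2% lower with shEya3_KD1, and 23.0% and 22.3% with shEya3_KD2. Krt5 and Krt14 are the paired keratins of basal cells. Krt5 had 0, 2 and 1 counts in SCR, 20, 25 and 15 in shEya3_KD1, and 2, 1 and 1 in shEya3_KD2, a ratio of 24.3 for shEya3_KD1 over SCR (95% counting interval 7.94 to 121). Krt14 went the other way, with 0.95, 1.89 and 1.13 CPM in SCR, 0.674, 0.374 and 0.634 in shEya3_KD1, and 14, 10.5 and 10.9 in shEya3_KD2. The log2 fold change of Krt14 was -1.26 ± 0.32 with shEya3_KD1 and 3.15 ± 0.21 with shEya3_KD2 (adjusted p = 0.00490 and 1.41e-07, edgeR). Keratin counts are uncertain where reads are shared with near-identical copies.

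Genes of the hemidesmosome and its laminin anchor, which fix basal cells to the matrix, were split. Itgb4, the hemidesmosome integrin chain, rose from 17.6 ± 2.18 CPM to 49.9 ± 7.30 and 35.6 ± 5.53 CPM with shEya3_KD1 and shEya3_KD2. Lamb3, a laminin chain of the anchor, fell from 6.0 ± 0.571 to 1.47 ± 0.350 and 1.24 ± 0.356 CPM.

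Of 28 listed luminal genes 13 were tested. With shEya3_KD1 7 were higher and 2 lower (1 lower without shEya3_KD1 replicate 2 or replicate 3), and with shEya3_KD2 7 were higher and 3 lower, with median log2 fold changes of 0.35 and 0.50. Over all genes tested 24.1% were higher and 26.2% lower with shEya3_KD1, and 23.0% and 22.3% with shEya3_KD2, at medians of 0.01 and 0.00. Krt8 rose from 679 ± 20.8 to 1315 ± 81.6 CPM with shEya3_KD1 and 792 ± 53.4 CPM with shEya3_KD2. Its partner Krt18 had 4 counts in SCR, 112 in shEya3_KD1 and 308 in shEya3_KD2, so the pair differed widely in counts. How shared reads were counted is not stated, so a low Krt18 count may not be a low level, which was not tested. Krt7 rose with shEya3_KD1 from 0.442 ± 0.128 to 1.68 ± 0.0906 CPM and stood at 0.528 ± 0.154 CPM in shEya3_KD2. Krt19 had 3, 3 and 55 counts in SCR, shEya3_KD1 and shEya3_KD2. Stat5a and Stat5b, the prolactin pathway factors that act beside Elf5, rose with both hairpins, Stat5b from 23.8 ± 2.37 to 31.4 ± 0.303 and 38.3 ± 2.02 CPM. The milk genes Csn2, Wap and Lalba had no counts in any group. Csn3, which encodes kappa-casein, stood at 54.9 ± 3.15 CPM in SCR, 0.331 ± 0.219 CPM in shEya3_KD1 and 36.5 ± 2.13 CPM in shEya3_KD2. Csn3 was called lower with both hairpins, and so was Aldh1a3. The log2 fold change of Aldh1a3 was -0.90 ± 0.28 with shEya3_KD1 and -1.33 ± 0.30 with shEya3_KD2. Cd24a was called lower against SCR with shEya3_KD2 only of the 2 hairpins (-0.18 ± 0.06).

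**Figure D4:**
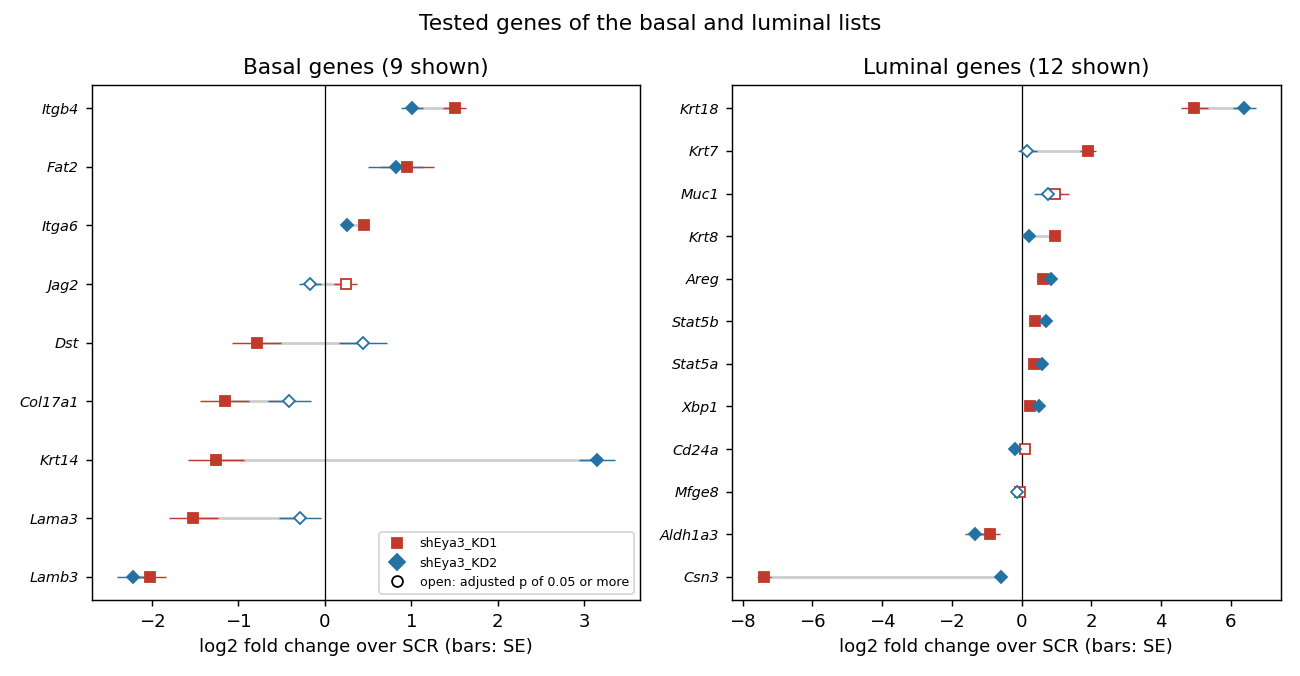
Log2 fold change over SCR with its standard error for 9 of the 11 tested basal genes and 12 of the 13 tested luminal genes, squares for shEya3_KD1 and diamonds for shEya3_KD2; filled symbols passed the test. Krt5 and Krt19, with 3 counts in SCR, are left out. Krt14 lies at -1.26 with shEya3_KD1 and 3.15 with shEya3_KD2, and Csn3 at -7.39 and -0.59.

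Among 34 other regulators of mammary or epithelial fate 19 were tested, with 5 higher and 8 lower with shEya3_KD1, and 8 higher and 5 lower with shEya3_KD2, at medians of -0.25 and 0.18. The 8 higher with shEya3_KD2 became 5 without SCR replicate 1, SCR replicate 3, shEya3_KD2 replicate 1 or shEya3_KD2 replicate 2. The shares over all genes were 24.1% higher and 26.2% lower with shEya3_KD1, and 23.0% and 22.3% with shEya3_KD2 (medians 0.01 and 0.00). The Id relatives of the silent Id4 were expressed, and with shEya3_KD1 Id2 rose by a log2 fold change of 2.30 ± 0.07, Id1 by 1.15 ± 0.07 and Id3 by 0.55 ± 0.08. With shEya3_KD2 Id1 rose by 0.71 ± 0.07, and Id2 and Id3 had -0.09 ± 0.07 and 0.10 ± 0.08. Elf3, an epithelial Ets factor like Elf5, fell from 3.53 ± 0.437 to 0.314 ± 0.148 and 1.52 ± 0.116 CPM with shEya3_KD1 and shEya3_KD2. Snai2, the repressor Slug that favours the basal state, fell from 27.3 ± 1.91 to 10.2 ± 0.537 and 14.7 ± 0.854 CPM. Of the other Sox genes, Sox6 fell from 1.58 ± 0.109 to 1.01 ± 0.0846 and 0.264 ± 0.0852 CPM, Sox4 rose with shEya3_KD2 from 67.5 ± 1.87 to 143 ± 9.83 CPM, and Sox2, Sox8 and Sox11 had no counts. Gata2, another Gata factor, was at 2.80 ± 0.389, 2.36 ± 0.233 and 2.27 ± 0.267 CPM and passed no test.

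Of 22 listed partner proteins 20 were tested. With shEya3_KD1 4 were higher and 4 lower, with a median log2 fold change of 0.07, or 2 lower without SCR replicate 3 or shEya3_KD1 replicate 3. With shEya3_KD2 13 were higher and 1, Mdm2, was lower, with a median log2 fold change of 0.39. Over all genes tested 24.1% were higher and 26.2% lower with shEya3_KD1, at a median of 0.01. With shEya3_KD2 these shares were 23.0% and 22.3%, at a median of 0.00. Zfpm1, the Friend of Gata cofactor, rose from 13.4 ± 1.49 to 26.8 ± 4.46 and 31.7 ± 1.67 CPM, in each of 3 libraries of both hairpins. Such non-overlap with SCR was found for 59.3% and 54.4% of all genes tested with shEya3_KD1 and shEya3_KD2. Ncoa2, a coactivator of nuclear receptors such as the oestrogen receptor, rose from 55.4 ± 3.90 to 70.9 ± 5.84 and 83.4 ± 13.2 CPM. Tcf4, a helix-loop-helix factor of the kind that Id proteins bind, fell from 72.6 ± 1.24 to 59.6 ± 4.91 CPM with shEya3_KD1 and rose to 113 ± 17.4 CPM with shEya3_KD2. Tle3, a corepressor recruited by Runx factors, was at 44.8 ± 5.61, 52.5 ± 5.19 and 67.3 ± 6.95 CPM, and only the rise with shEya3_KD2 passed the test of the 2 against SCR.

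**Figure D5:**
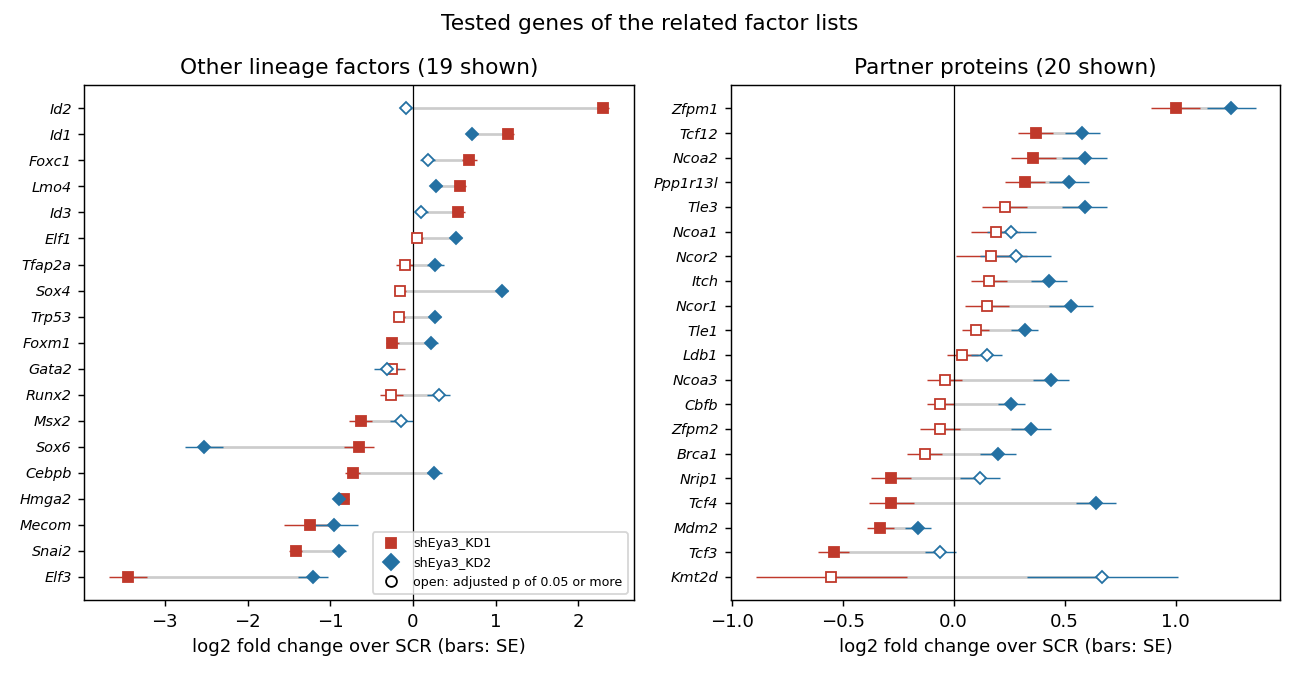
Log2 fold change over SCR with its standard error for 19 other lineage factors and 20 partner proteins, squares for shEya3_KD1 and diamonds for shEya3_KD2; filled symbols passed the test. Id2 stands at 2.30 with shEya3_KD1 and -0.09 with shEya3_KD2, and Zfpm1 at 1.00 and 1.25.

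Markers of other cell types were read beside these changes, and their part in the results was not tested. The counts called stand beside 24.1% of all genes higher and 26.2% lower with shEya3_KD1, and 23.0% and 22.3% with shEya3_KD2. Summed over 8 fibroblast markers the level was 29.0 to 35.9 CPM in SCR, 53.9 to 59.0 in shEya3_KD1 and 30.7 to 45.0 in shEya3_KD2, with Thy1 at 0 in all groups and Lum and Dcn at no more than 3 and 9 counts in a group. Of the 5 tested, 3 were higher and 1 lower with shEya3_KD1, and 1 was higher and 1 lower with shEya3_KD2. Pdgfrb and Col1a2, of that list, rose with shEya3_KD1 from 0.605 ± 0.145 to 11.8 ± 1.65 CPM and from 0.0847 ± 0.0223 to 4.53 ± 0.514 CPM. Pdgfra rose with it from 28 ± 2.98 to 37.9 ± 1.30 CPM, whereas Col1a1 fell with both hairpins, from 3.65 ± 0.602 to 1.30 ± 0.229 and 2.45 ± 0.582 CPM. The sum over 11 markers of glia and pigment cells, which also use Sox10, was 9.84 to 10.5, 8.21 to 9.03 and 9.14 to 13.0 CPM in SCR, shEya3_KD1 and shEya3_KD2, with Foxd3 and Tyr at 0 and most of the sum from Mitf. Of 3 tested, 1 was lower with shEya3_KD1 and none passed with shEya3_KD2, where Sox10 had no counts. Macrophage markers summed to 47.2 to 50.8, 27.2 to 32.0 and 21.6 to 27.6 CPM over 11 genes, with C1qa and C1qc at 0, and 4 tested (1 higher and 3 lower with shEya3_KD1, 2 and 2 with shEya3_KD2). Lyz2 fell from 38.6 ± 1.55 to 25.1 ± 1.88 and 11.1 ± 2.71 CPM. Cd68 fell with shEya3_KD1 from 9.64 ± 0.212 to 3.54 ± 0.873 CPM and was called higher with shEya3_KD2, at 12.1 ± 0.869 CPM. In SCR, shEya3_KD1 and shEya3_KD2, C1qb had 4, 32 and 44 counts and was called higher with both hairpins. Ptprc had 90, 24 and 5 counts and was called lower with both. Of those not tested, Tyrobp had 0, 15 and 0 counts and Fcer1g 2, 12 and 1. Endothelial markers summed to 4.26 to 5.12, 2.97 to 4.0 and 2.16 to 2.81 CPM over 8 genes, and of 4 tested 2 were higher and 2 lower with shEya3_KD1, and 0 higher and 2 lower with shEya3_KD2. Cdh5 fell from 3.72 ± 0.263 to 0.264 ± 0.0331 and 2.13 ± 0.289 CPM, and Tie1 from 0.723 ± 0.113 to 0.182 ± 0.0799 and 0.109 ± 0.0611 CPM, while Emcn had 2 counts in SCR, 264 in shEya3_KD1 and 0 in shEya3_KD2.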

How the data were processed

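The 9 libraries came from a NuGEN kit for messenger RNA, per the labels' protocols. The submitters' processing notes name STAR, FastQC, MultiQC and the build mm10. How reads were counted per gene, with which annotation and strand setting, was not stated in the labels or file headers. The authors deposited raw read counts per gene symbol, which were used as deposited. Symbols were placed with GENCODE M21 (mm10), in which all 55418 matched, and promoter windows come from RefSeq (GRCm38.p6).

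The fit used edgeR 4.0.16 in R 4.3.3, with filterByExpr, TMM factors and 1 robust quasi-likelihood fit of all 9 libraries with the group as the only term, with Benjamini-Hochberg adjustment over 15914 genes at 0.05. Standard errors come from the fold change and its F statistic. The fit was tested on simulated data. With 3 against 3, an exact permutation test cannot go below 0.1. A group at or under 3 counts was read as a floor or as a ratio with a 95% counting interval, and intervals cover counting error only.

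The members, lists and rule were chosen with earlier results of these data known. The rule names the members, Eya3, up to 4 called genes per list (at least 1 CPM, no overlap), all label-check genes and the 3 nearest patterns per tested member. Greb1, Areg, Krt19, Stat5a, Stat5b, Aldh1a3, Cd24a, Csn2, Wap, Lalba, Id1, Id3, Sox2, Sox4, Sox8, Sox11, Gata2, Trp53, Cbfb, Mdm2 and single cell-type markers were named after their values were seen. Of the basal list, 2 genes are counted but not reported here by name. Alternatives were RLE factors, DESeq2 1.42.0, limma-voom (limma 3.58.1), genes kept without a filter or at 5 CPM in 3 libraries, a fit of the compared groups alone, a block for the replicate number, thinning to the shallowest library and each library left out.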

Additional observations from a re-analysis of the deposited data

Results flagged for a closer look

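Of the 5 tested members, 3 changed against SCR by different amounts with the 2 hairpins, by edgeR's direct comparison of shEya3_KD2 with shEya3_KD1. Trp63 had 2 counts in the 3 shEya3_KD2 libraries against 567 in shEya3_KD1, lower in 3 of 3, a ratio of 291 for shEya3_KD1 over shEya3_KD2 with a 95% counting interval of 80.3 to 2411. Its fitted log2 fold change of -7.94 depends on the prior count and is no measure of size, and the gene passed the filter only through shEya3_KD1. Sox9 had -1.63 (adjusted p = 4.02e-08, edgeR), lower in 3 of 3. Runx1 had 0.20 (adjusted p = 0.0287, edgeR), higher in 3 of 3, a call that was lost when any of 4 libraries was left out. Of all genes tested 49.6% passed this comparison, and 54.3% had no overlap between the libraries of the 2 hairpins.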

How the results depend on the processing

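Gata3, Esr1 and Sox9 kept their direction and their calls against SCR with shEya3_KD1 in each alternative, and Gata3 and Esr1 did so with shEya3_KD2. Trp63 was called with shEya3_KD1 in each alternative in which it was tested, and it was not tested at 5 CPM. It had 1 count in SCR and passed the filter through shEya3_KD1 alone, so these repeated calls add no support. With single libraries left out, 4 members were called with shEya3_KD1, 2 to 3 with shEya3_KD2 and 2 to 4 between the hairpins, and all genes called ran from 7044 to 8681, 5984 to 7695 and 6747 to 8433. The log2 fold change of Sox9 with shEya3_KD2, which passed no test, turned to 0.04 with counts thinned and ranged from -0.19 to 0.09 (without SCR replicate 2) with single libraries left out. That of Esr1 between the hairpins ranged from -0.14 (without shEya3_KD2 replicate 2) to 0.25. Runx1 lost its call with shEya3_KD2 at 5 CPM (adjusted p = 0.0521, edgeR) and in a fit of the compared groups alone (0.0550), over a range of 0.00481 to 0.115 in the alternatives, and the latter fit also ended its call between the hairpins (0.0782, range 0.00409 to 0.102). The causes were not tested.

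A filter of 5 CPM, which tests fewer genes, left 6 called basal genes with shEya3_KD1, 7 other lineage factors with shEya3_KD2 and 3 label genes between the hairpins. It left 0 endothelial genes in the 3 comparisons, 2, 1 and 1 fibroblast genes with shEya3_KD1, with shEya3_KD2 and between the hairpins, 2 and 1 macrophage genes with shEya3_KD1 and shEya3_KD2, and 0 glia and melanocyte genes with shEya3_KD1 and between the hairpins. Genes that miss this filter leave the test, so a lower count need not be a lost call. Over all genes 5866 were called at 5 CPM with shEya3_KD1 and 5686 with shEya3_KD2, beside 8011 and 7210 in the main fit. Without a filter 2 glia and melanocyte genes were called with shEya3_KD1, where 8693 of all genes were called, and 5 macrophage genes between the hairpins. Thinning left 2 macrophage genes with shEya3_KD2. The glia and melanocyte genes called were 2 with shEya3_KD1 and 0 between the hairpins in a fit of the compared groups, and between the hairpins 1 with RLE factors, DESeq2 or thinning and 0 with limma-voom. Leaving out single libraries gave 1 to 2 of these genes with shEya3_KD1, 0 to 2 between the hairpins, and 1 to 3 fibroblast genes with shEya3_KD2.

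Deviations from the group means correlated at -0.108 to 0.196 between same-numbered libraries and at -0.239 to 0.17 between differently numbered ones. With 3 libraries per group this does not settle whether the numbers pair the libraries. With the replicate block 4, 3 and 3 members were called, with 8093, 7329 and 8017 of all genes, and 1 glia and melanocyte gene between the hairpins. Members at 0 are limited by depth to the floor of 3 counts.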
